A study of Mus musculus with 23 samples.

Results

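The 10 genes described here, out of 54838 in the count table, make, receive, carry, restrain or answer inflammatory cytokine signals in the liver. They are Cxcl1, Socs3, Osmr, Nfkbiz, Steap4, Il1rn, Il6ra, Stat3, Tnip2 and Nfkbia, taken by gene symbol and all 10 measured above the filter on low counts. Liver RNA of C57BL/6J mice, an inbred laboratory strain, was sequenced after injection of a recombinant secreted protein or of vehicle. The question was which liver genes differ after each protein. The groups were EPDR1 (ependymin-related protein 1, 4 libraries), FCN2 (ficolin-2, a complement-activating lectin, 4 libraries), FSTL3 (follistatin-like 3, which binds activins, 4 libraries) and a vehicle group of batch 2 (4 libraries), and LBP (lipopolysaccharide-binding protein, 3 libraries, numbered 2 to 4) and a vehicle group of batch 1 (4 libraries). The dose of every protein was 1 µg per g body weight, injected 3 times at intervals of 1 day. The labels give no age or sex of the mice, and they do not say whether each library came from its own animal, so a p-value here reflects library-to-library spread, which may in part be technical.

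Interleukin-6 and its relatives, such as oncostatin M, signal in hepatocytes through receptors that share the chain gp130. The receptors activate JAK kinases, which phosphorylate the transcription factor STAT3, and STAT3 induces acute phase proteins together with SOCS3, which then blocks the receptor. Interleukin-1 and tumour necrosis factor act through NF-kB, which induces chemokines such as CXCL1, a recruiter of neutrophils, and also its own inhibitors. Because the inhibitors are themselves induced, RNA of the feedback genes is commonly read as a trace of recent signalling.

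Promoter sequence is shown for the 4 genes whose windows held the binding motif of the factor each gene is best known to answer to, or both motifs. RefSeq promoters (build GRCm38.p6, 250 bases before to 50 after each start, 300 in all) were found for 9 of the 10 genes, and Nfkbiz had no entry. Both strands were searched for the STAT motif TTCNNNGAA and for the NF-kB consensus. Capitals mark the matches. In Cxcl1 (chr5:90890995-90891294, plus strand) matches to the NF-kB consensus overlapped each other 71 and 70 bases before the start. In Nfkbia (chr12:55492598-55492897, minus strand) the NF-kB match began 29 bases before the start. In Socs3 (chr11:117969317-117969616, minus strand) the STAT match began 154 bases before the start. In Steap4 (chr5:7960222-7960521, plus strand) a STAT match began 116 bases before the start, and NF-kB matches began 250 and 226 bases before it.
Cxcl1: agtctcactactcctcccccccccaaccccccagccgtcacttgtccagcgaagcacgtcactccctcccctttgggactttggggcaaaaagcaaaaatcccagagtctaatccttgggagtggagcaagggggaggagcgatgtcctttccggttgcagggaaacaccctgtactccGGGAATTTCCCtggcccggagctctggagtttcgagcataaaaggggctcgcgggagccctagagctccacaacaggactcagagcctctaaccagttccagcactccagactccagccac
Nfkbia: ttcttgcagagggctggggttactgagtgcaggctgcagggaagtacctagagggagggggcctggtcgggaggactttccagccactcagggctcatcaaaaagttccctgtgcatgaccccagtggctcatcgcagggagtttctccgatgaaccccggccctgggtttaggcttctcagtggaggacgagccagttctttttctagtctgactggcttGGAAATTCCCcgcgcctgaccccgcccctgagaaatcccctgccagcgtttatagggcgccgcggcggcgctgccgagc
Socs3: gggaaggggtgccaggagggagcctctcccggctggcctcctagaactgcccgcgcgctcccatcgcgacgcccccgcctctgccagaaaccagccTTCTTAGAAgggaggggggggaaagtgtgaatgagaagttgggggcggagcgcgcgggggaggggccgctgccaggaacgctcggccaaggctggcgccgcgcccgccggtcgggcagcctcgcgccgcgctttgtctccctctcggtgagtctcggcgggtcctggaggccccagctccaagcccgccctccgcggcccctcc
Steap4: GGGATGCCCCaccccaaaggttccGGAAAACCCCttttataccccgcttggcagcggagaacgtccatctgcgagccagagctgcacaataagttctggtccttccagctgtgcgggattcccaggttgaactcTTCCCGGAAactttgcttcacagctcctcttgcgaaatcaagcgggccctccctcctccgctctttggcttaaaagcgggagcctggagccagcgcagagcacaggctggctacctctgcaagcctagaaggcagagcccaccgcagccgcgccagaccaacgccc
A STAT match was held by 3 of the 9 genes (Socs3, Steap4 and Tnip2, the last 6 bases after its start) and by 9.55% of the 27025 genes in the table. An NF-kB match was held by 3 of the 9 genes (Cxcl1, Nfkbia and Steap4) and by 5.14% of all genes. A match is a description of the letters in the window and not a binding site.

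Total gene counts ran from 773499 to 21892416 per library (median 3712802). Hepatocyte markers were abundant in every group, with a summed level of 63208 to 122078 CPM (read counts scaled to library size) over 7 genes. LBP replicate 2 stood apart, because albumin made up 0.211% of its counts and between 5.26% and 8.36% in the other 22 libraries. Its reads of the 10 genes ran from 1 for Osmr, 3 for Socs3 and Tnip2, 6 for Il1rn and 7 for Cxcl1 to 369 for Stat3 and 519 for Nfkbia. The FSTL3 libraries stood apart in another way. The small nuclear RNA 7SK (Rn7sk) averaged 5488 ± 220 CPM there and 6.78 ± 1.19 CPM in the vehicle of batch 2 (SD, n = 4 each). The clock gene Arntl averaged 3.44 ± 1.46 CPM in FSTL3 livers, 25.4 ± 7.1 CPM in the vehicle of batch 2 and 2.54 ± 1.68 CPM in the vehicle of batch 1. Results that rest on either set are given with and without it, or with the vehicle of batch 1 as control.

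Levels below are in CPM. Log2 fold changes are given ± SE from edgeR's quasi-likelihood test over 11969 genes, and a gene is called when its Benjamini-Hochberg adjusted p is under 0.05. The 10 genes were chosen by their levels and fold changes in these same livers, so those values are a description and nothing is read from the calls among them. Per kilobase of exon, the mean levels in the vehicle of batch 2 were highest for Steap4 (72.1 CPM per kb), Cxcl1 (67.0) and Nfkbia (37.7), followed by Stat3 (12.5), Socs3 (5.53), Il6ra (5.39), Nfkbiz (2.87) and Tnip2 (1.99). Il1rn (0.803 CPM per kb) and Osmr (0.294 CPM per kb) were the least abundant.

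**Figure D1:**
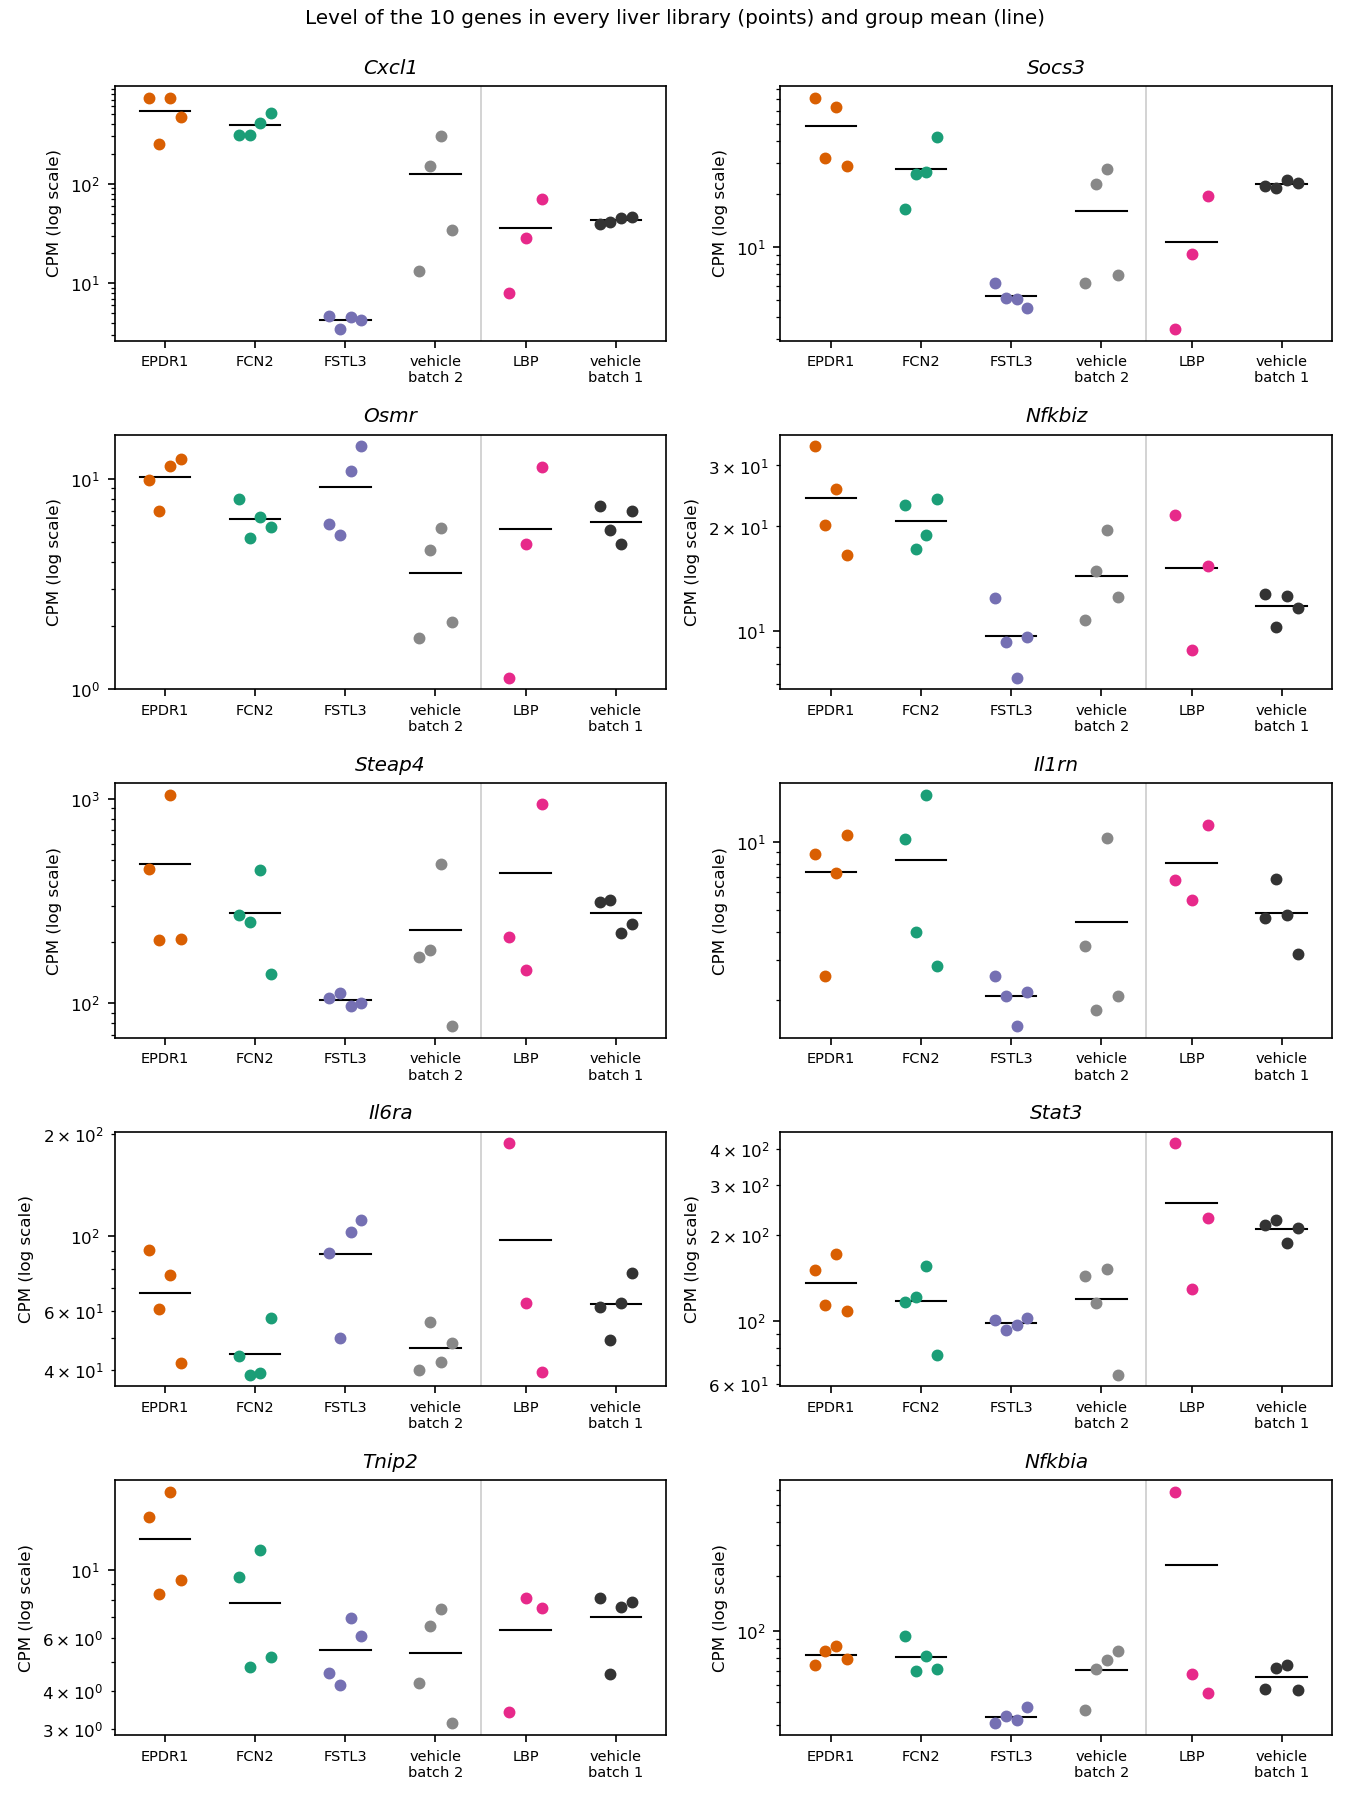
Levels of the 10 genes in every library, in CPM on a log axis, with groups along the x axis, 1 point per library and the group mean as a line. Cxcl1 spans 3.48 to 737 CPM over all libraries, and its vehicle livers of batch 2 are spread from 13.4 to 304 CPM while those of batch 1 lie between 39.2 and 46.6 CPM.

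Cxcl1 encodes a chemokine that draws neutrophils through the receptor CXCR2 (gene on chromosome 5, 90891241 to 90893115, GRCm38). It had 737, 251, 728 and 467 CPM in EPDR1 livers, 312, 312, 411 and 510 CPM in FCN2 livers and 4.68, 3.48, 4.61 and 4.25 CPM in FSTL3 livers, against 13.4, 151, 304 and 34.4 CPM in the vehicle of batch 2. In batch 1 it had 7.93, 28.3 and 70.7 CPM in LBP livers, against 39.2, 41.1, 45.0 and 46.6 CPM in the vehicle. By group mean the order was EPDR1 (546 ± 233 CPM), FCN2 (386 ± 94.8), vehicle of batch 2 (126 ± 133), vehicle of batch 1 (43.0 ± 3.41), LBP (35.7 ± 32) and FSTL3 (4.26 ± 0.553). The EPDR1 range overlapped that of the vehicle of batch 2 (lowest 251 CPM in EPDR1, highest 304 CPM in vehicle). Ranges also overlapped between EPDR1 and FCN2, between the vehicles, and between LBP and the vehicle of batch 1. They did not overlap between FCN2 and the vehicle of batch 2, where the gap was narrow (lowest 312 CPM in FCN2, highest 304 CPM in vehicle), nor between LBP and FSTL3.

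Among the receptors, Osmr encodes the oncostatin M receptor subunit that pairs with gp130 (chromosome 15, 6813577 to 6874969). Osmr had 9.81, 7.05, 11.5 and 12.4 CPM in EPDR1 livers, 7.96, 5.20, 6.58 and 5.88 CPM in FCN2 livers and 6.06, 5.39, 10.8 and 14.3 CPM in FSTL3 livers, against 1.74, 4.6, 5.81 and 2.08 CPM in the vehicle of batch 2. The lowest EPDR1 value was above the highest vehicle value, and the FCN2 and FSTL3 ranges each overlapped that of the vehicle. In batch 1, Osmr had 1.13, 4.88 and 11.3 CPM in LBP livers, against 7.42, 5.71, 4.87 and 7.0 CPM in the vehicle.

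Il6ra encodes the interleukin-6 binding chain of the receptor (chromosome 3, 89864059 to 89913196). It had 90.8, 60.9, 76.9 and 42.0 CPM in EPDR1 livers, 44.2, 38.8, 39.2 and 57.2 CPM in FCN2 livers and 88.8, 49.9, 103 and 112 CPM in FSTL3 livers, against 40.1, 55.7, 42.4 and 48.2 CPM in the vehicle of batch 2. FSTL3 replicate 2 was the one FSTL3 library inside the vehicle range. LBP livers had 188, 63.5 and 39.5 CPM of Il6ra, against 61.5, 49.1, 63.5 and 77.8 CPM in the vehicle of batch 1.

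Stat3 encodes the factor that carries the gp130 signal to the nucleus (chromosome 11, 100885098 to 100939540), and its 3′ end overlaps that of Stat5a on the other strand. The recorded counting options set no strand, so reads of that overlap cannot be assigned to one of them. Stat3 lay between 108 and 172 CPM in EPDR1 livers, 75.6 and 156 CPM in FCN2 livers and 92.8 and 102 CPM in FSTL3 livers, against 64.5 to 151 CPM in the vehicle of batch 2. It lay at 418, 130 and 229 CPM in LBP livers, against 188 to 226 CPM in the vehicle of batch 1. The vehicle livers of batch 1 were all above those of batch 2, and no protein group of batch 2 left the range of its vehicle altogether.

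Of the feedback genes, Socs3 encodes the inhibitor that binds gp130 and JAK kinases (chromosome 11, 117966079 to 117970047). It had 71.2, 32, 62.9 and 28.9 CPM in EPDR1 livers, 16.4, 26, 26.6 and 42.1 CPM in FCN2 livers and 6.25, 5.13, 5.06 and 4.50 CPM in FSTL3 livers, against 6.23, 23, 27.8 and 6.94 CPM in the vehicle of batch 2. LBP livers had 3.40, 9.11 and 19.6 CPM, against 22.3, 21.7, 24 and 23 CPM in the vehicle of batch 1. Every EPDR1 liver lay above the highest vehicle value of batch 2, 3 of the 4 FCN2 livers lay within the vehicle range, and FSTL3 replicate 1 just reached its lower end. All 3 LBP livers lay below the vehicle range of batch 1.

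NF-kB induces Nfkbia, which encodes its inhibitor IkB-alpha, and Nfkbiz, which encodes the nuclear cofactor IkB-zeta. Nfkbia (chromosome 12, 55489410 to 55492647) had 30.5 to 37.6 CPM in FSTL3 livers, 64.5 to 82.3 CPM in EPDR1 livers and 60.0 to 92.7 CPM in FCN2 livers, against 36.4, 61.4, 68.5 and 76.7 CPM in the vehicle of batch 2. It had 588, 57.6 and 45.2 CPM in LBP livers, against 46.6 to 64.1 CPM in the vehicle of batch 1, so that LBP replicate 2 alone lay above the vehicle range. Nfkbiz (chromosome 16, 55811375 to 55838899) had 34.1, 20.2, 25.7 and 16.5 CPM in EPDR1 livers, 17.2 to 24 CPM in FCN2 livers and 7.32 to 12.4 CPM in FSTL3 livers, against 10.7 to 19.5 CPM in the vehicle of batch 2. Tnip2, whose product binds A20 and restrains NF-kB (chromosome 5, 34496087 to 34513991), had 15, 8.33, 18.2 and 9.30 CPM in EPDR1 livers, against 4.23, 6.55, 7.47 and 3.12 CPM in the vehicle of batch 2. These ranges did not overlap, while the FCN2 (4.80 to 11.7 CPM) and FSTL3 (4.17 to 6.96 CPM) ranges of Tnip2 overlapped that of the vehicle.

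Il1rn encodes the secreted interleukin-1 receptor antagonist (chromosome 2, 24336853 to 24351494). Its reads were few, 6 to 66 per library, and it had 2.56 to 10.7 CPM in EPDR1 livers, 2.82 to 16.1 CPM in FCN2 livers and 1.54 to 2.57 CPM in FSTL3 livers, against 1.82 to 10.4 CPM in the vehicle of batch 2. Steap4 encodes a metalloreductase that inflammatory cytokines induce (chromosome 5, 7960457 to 7982213). It had 453, 204, 1045 and 207 CPM in EPDR1 livers, 271, 249, 449 and 139 CPM in FCN2 livers and 107, 112, 97.2 and 101 CPM in FSTL3 livers, against 169, 183, 481 and 77.4 CPM in the vehicle of batch 2. Steap4 in LBP livers was 211, 145 and 946 CPM, against 222 to 321 CPM in the vehicle of batch 1. All the FSTL3 livers lay near the low end of the vehicle range for both genes, and closer together than the livers of any other group for Steap4.

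**Figure D2:**
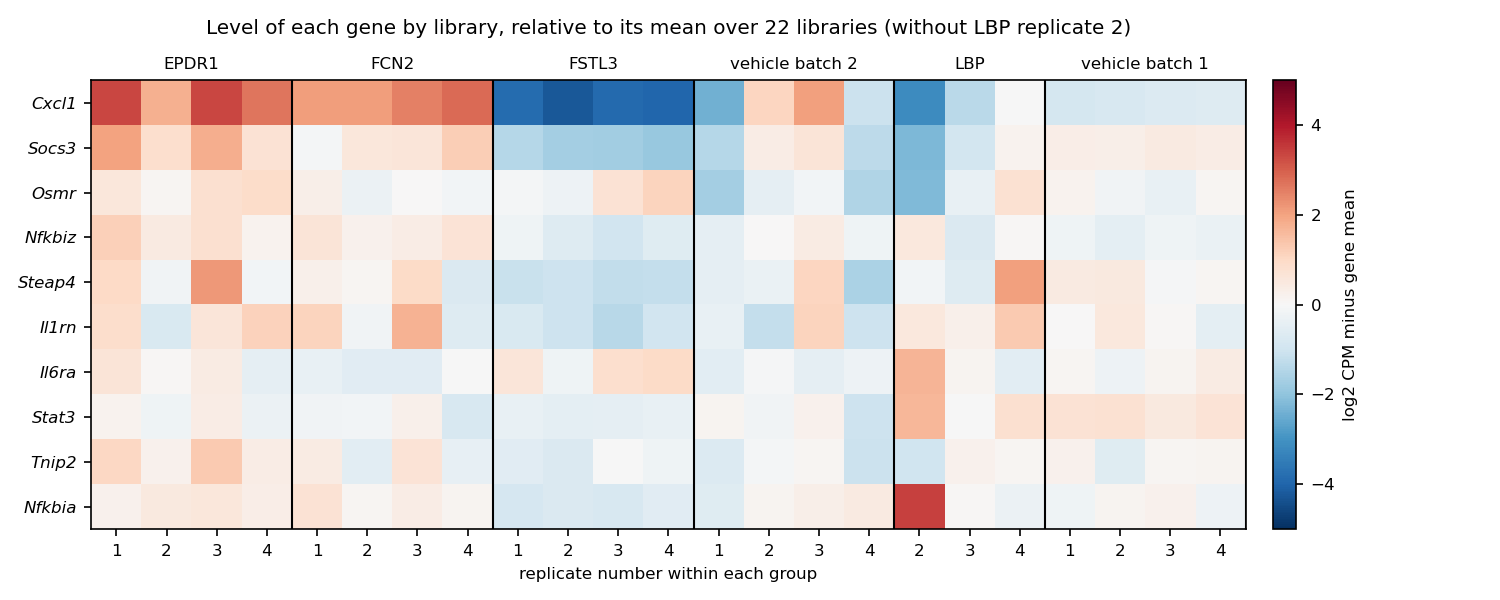
Level of each gene (rows) in each library (columns, by group and replicate number) as log2 CPM minus the gene's mean over 22 libraries, red above and blue below it. Cxcl1 and Socs3 are both low in FSTL3 livers and high in vehicle livers 2 and 3 of batch 2, Osmr and Il6ra do not follow them in FSTL3 livers, and Nfkbia is high in LBP replicate 2.

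After EPDR1, Cxcl1 had the largest fold change of the 10, a log2 of 2.12 ± 0.62 (4.36-fold), followed by Socs3 (1.6 ± 0.42), Osmr (1.48 ± 0.40), Tnip2 (1.22 ± 0.32) and Steap4 (1.07 ± 0.57). Without single libraries Cxcl1 ranged from 1.75 (without vehicle replicate 1) to 3.02 (without vehicle replicate 3), and Steap4 from 0.34 (without EPDR1 replicate 3) to 1.74 (without vehicle replicate 3). All 10 values were positive over all libraries, with a median of 1.01 beside 0.01 over all genes tested. None of the 10 passed the test, and neither did any other gene (0% of 11969). The adjusted p was 0.958 for Cxcl1 and Osmr and 0.937 for Socs3 and Tnip2 with edgeR's quasi-likelihood test. At an unadjusted p under 0.05 there were 493 genes, 5 of them among the 10, and DESeq2 and limma-voom also called 0 genes. The 3 genes whose ranges did not overlap the vehicle, Socs3, Osmr and Tnip2, stand beside 4.23% of all genes without overlap (2.31% higher). The common dispersion was 0.0298 without LBP replicate 2 and 0.0774 with it. In the fit without it, again 0% of all genes were called, and edgeR's adjusted p values were 0.281 for Cxcl1, 0.210 for Socs3, 0.171 for Osmr and 0.171 for Tnip2.

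After FCN2, Cxcl1 again led with a log2 fold change of 1.62 ± 0.61 (3.08-fold), followed by Il1rn (1.14 ± 0.53), Osmr (0.83 ± 0.41), Socs3 (0.78 ± 0.42) and Nfkbiz (0.55 ± 0.25). Il6ra (-0.06 ± 0.35) and Stat3 (-0.02 ± 0.29) were near 0, and 8 of the 10 values were positive (median 0.54, and 0.02 over all genes). None of the 10 was called by edgeR, DESeq2 or limma-voom, and edgeR called 0.81% of all genes. At an unadjusted p under 0.05 there were 2069 genes and 3 of the 10. The adjusted p for Cxcl1 was 0.171 with edgeR, and 0.0764 without LBP replicate 2, when 18.9% of all genes were called. Cxcl1 was the 1 gene of the 10 whose range did not overlap the vehicle, beside 18.6% of all genes (9.12% higher).
One control liver, replicate 3 of the vehicle of batch 2, had the highest Cxcl1, Il1rn and Nfkbiz of its group, and also the highest Socs3, Osmr, Steap4, Stat3 and Tnip2. Leaving out the highest control library raises the fold change of such genes by itself, so nothing is read from the calls without it. Without this replicate 3 alone, Cxcl1 had 2.52 and Il1rn 1.84. Without it and LBP replicate 2, Cxcl1 (2.48, adjusted p 0.0133), Il1rn (1.88, 0.0169) and Nfkbiz (0.69, 0.0347) were called by edgeR, all higher, beside 15.9% of all genes (7.16% higher) in that fit. With LBP replicate 2 left out and any other library of the comparison removed instead, none of the 10 was called.

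EPDR1 and FCN2 share their vehicle, and their values for the 10 genes stand side by side above. Compared directly, EPDR1 livers had a log2 fold change over FCN2 livers of 0.82 ± 0.41 for Socs3, 0.79 ± 0.57 for Steap4, 0.69 ± 0.31 for Tnip2, 0.64 ± 0.39 for Osmr and 0.50 ± 0.59 for Cxcl1. The one negative value of the 10 was Il1rn (-0.19 ± 0.50). None of these passed edgeR's test, with an adjusted p of 0.552 for Socs3 and 0.514 for Tnip2, and 0% of all genes did. No range of the 10 was free of overlap, beside 9.57% of all genes. At an unadjusted p under 0.05 there were 1097 genes, among them Tnip2 alone of the 10. DESeq2 called 71 genes and limma-voom 0, none of them among the 10. In the fit without LBP replicate 2, 4.73% of all genes were called and again none of the 10.

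**Figure D3:**
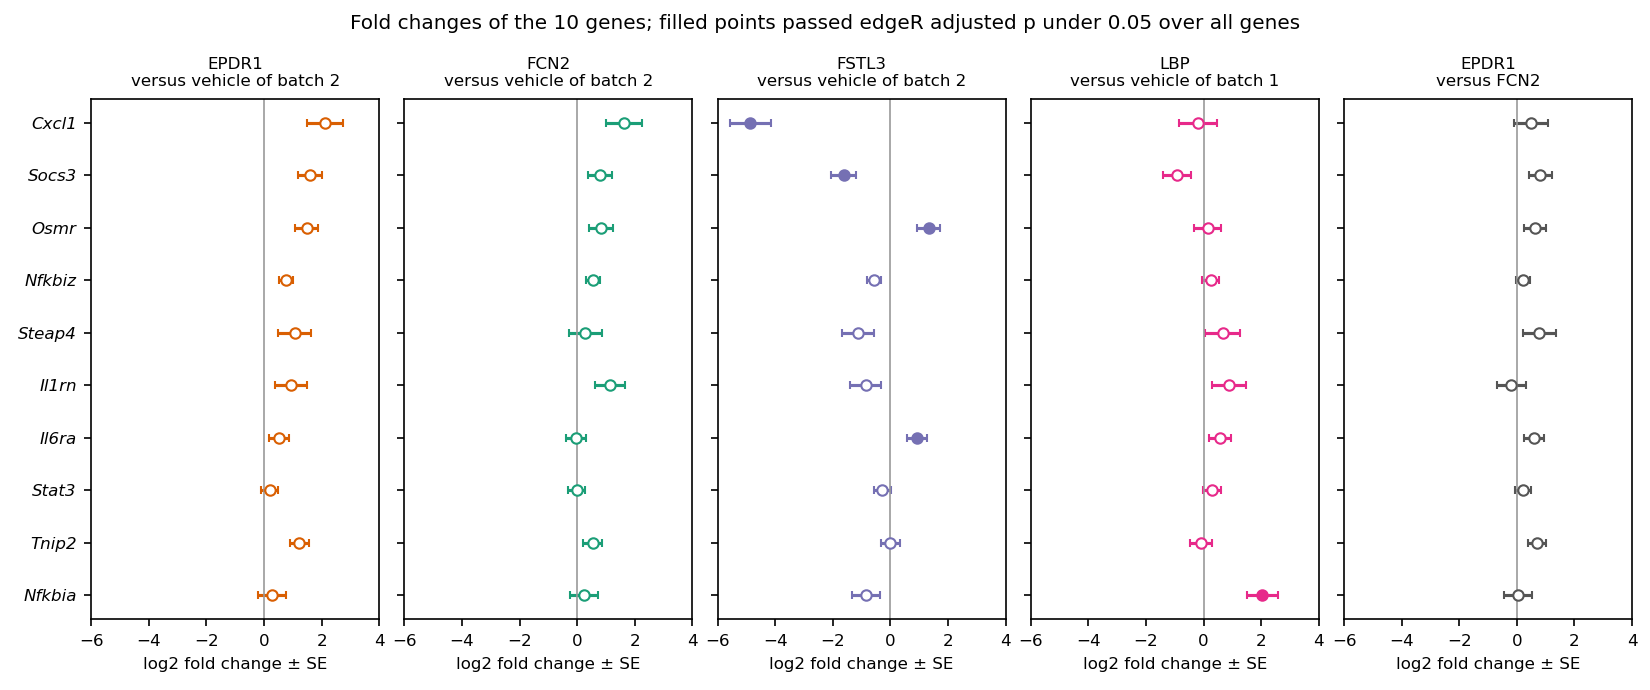
Log2 fold change ± SE of each gene (rows) in each comparison (panels), from edgeR, with filled points for an adjusted p under 0.05. All 10 values lie above 0 for EPDR1 without passing the test, Cxcl1 reaches -4.87 for FSTL3, and Nfkbia is the one filled point for LBP.

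After FSTL3, Cxcl1 fell by 4.87 ± 0.71 on the log2 scale against the vehicle of batch 2 (adjusted p 1.14e-05, edgeR) and Socs3 fell by 1.62 ± 0.43 (0.00455). The receptor genes Osmr (1.32 ± 0.39, adjusted p 0.00904) and Il6ra (0.92 ± 0.34, 0.0380) rose. These 4 of 10 stand beside 39.2% of all genes called in this comparison, 23.2% higher and 16% lower. The other 6 did not pass, with values between -1.12 ± 0.57 for Steap4 and 0.00 ± 0.33 for Tnip2. Of the 10, only Cxcl1 had no overlap with the vehicle range, beside 53.7% of all genes (23.8% lower). Without LBP replicate 2, 6 of the 10 were called beside 56.8% of all genes (31.3% higher, 25.4% lower), the same 4 with Nfkbia (-0.86 ± 0.17, adjusted p 0.000137) and Nfkbiz (-0.57 ± 0.21, 0.0219), both lower.

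The calls of the receptor genes differed between the control groups. Against the vehicle of batch 1, whose Arntl level was near that of the FSTL3 livers, Cxcl1 fell by 3.33 ± 0.68 (adjusted p 0.000579, edgeR), Socs3 fell by 2.13 ± 0.44 (0.000663) and Stat3 fell by 1.1 ± 0.30 (0.00622). Osmr (0.56 ± 0.39, adjusted p 0.284) and Il6ra (0.47 ± 0.34, 0.312) were not called there, while 31.9% of all genes were (18.7% higher, 13.2% lower). Ranges did not overlap for 6 of the 10, beside 51.2% of all genes, and without LBP replicate 2 Nfkbia was also called lower (-0.72 ± 0.18, adjusted p 0.00146, edgeR) beside 49.9%. Cxcl1, Socs3 and Osmr were called against the vehicle of batch 2 whichever single library was left out, with Cxcl1 between -5.25 and -3.98 (without vehicle replicate 3). Il6ra was not called without FSTL3 replicate 1, 3 or 4 or without vehicle replicate 1, 3 or 4 of batch 2 (adjusted p up to 0.109, edgeR). With LBP replicate 2 left out as well, it was called in all 8 fits that each leave out 1 library of the comparison (highest adjusted p 0.0121, edgeR). Batch and treatment cannot be told apart in the comparison with batch 1. Rn7sk averaged 3.79 ± 2.07 CPM (SD) in that vehicle, so the Rn7sk difference of the FSTL3 libraries is present against both vehicles. Whatever goes with it, and with the Arntl difference from the vehicle of batch 2, cannot be told apart from treatment.

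Neutrophil markers were low in the same FSTL3 livers. Their summed level over 12 genes was 2.3 to 5.75 CPM in FSTL3 livers, 19.2 to 41.5 CPM in EPDR1 livers and 17.6 to 25.4 CPM in FCN2 livers, against 5.23 to 22.4 CPM in the vehicle of batch 2. Of the 4 markers tested, S100a8 (-3.80 ± 0.67), S100a9 (-4.55 ± 0.69) and Csf3r (-1.26 ± 0.40) were called lower after FSTL3, and Il1b (-0.75 ± 0.48) was not. The same 3 were called lower against the vehicle of batch 1, and none of the 4 after EPDR1 or FCN2. Cxcr2, Mpo and Ly6g were at 0 in all FSTL3 libraries, Ngp, Ltf, Mpo and Ly6g in all EPDR1 libraries, Mpo, Elane and Camp in all FCN2 libraries, and Ngp and Ltf in all vehicle libraries of batch 2. After FSTL3, 5 of 11 Kupffer cell markers (Marco, Timd4, Cd5l, C1qc and Cd68) and 2 of 3 tested monocyte markers (Lyz2 and Plac8) were also called lower, and 4 of 9 sinusoidal endothelial markers (Stab1, Stab2, Kdr and Ptprb) higher. Of 7 hepatocyte markers 3 were called lower (Apoa1, Serpina1c and Fgb), and their summed level was 73498 to 84316 CPM in FSTL3 livers, against 88296 to 99546 CPM in the vehicle of batch 2, without overlap. Against the vehicle of batch 2, 16% of all genes were called lower and 23.2% higher. Against the vehicle of batch 1, 7 Kupffer, 2 monocyte and 1 hepatocyte markers were called lower, beside 13.2% of all genes. Of the 9 sinusoidal markers, 3 were called higher (18.7% of all genes) and 1 lower there. Between the vehicles, with batch 1 over batch 2, 4 of the 9 were called higher, beside 12.2% of all genes in either direction. The part of these cells in the changes of Cxcl1 and the other genes was not tested, and in bulk RNA fewer cells of a type and less RNA per cell cannot be told apart.

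After LBP, Nfkbia was the 1 gene of the 10 called against the vehicle of batch 1 (log2 2.04 ± 0.53, adjusted p 0.0236, edgeR), beside 7.7% of all genes (6.73% higher, 0.969% lower). LBP replicate 2, with 588 CPM, was the one LBP liver above the vehicle range. Without that library the value was -0.09 ± 0.22 (adjusted p 0.913), none of the 10 was called, and 0.727% of all genes were. The call was also lost without any single vehicle library of batch 1 (adjusted p 0.053 to 0.0699, edgeR). Socs3 had a log2 fold change of -0.92 ± 0.49 (adjusted p 0.284) and was the 1 gene of the 10 whose range lay wholly outside the vehicle's, beside 10.9% of all genes (6.23% lower). Its value was -0.65 ± 0.56 without LBP replicate 2. Cxcl1 had -0.20 ± 0.67 over all 3 LBP livers and 0.21 ± 0.80 over the other 2, and neither passed.

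Markers of other cells were high in the same LBP library. Pancreatic acinar markers, 10 genes all detected in both groups, summed to 2015, 21.5 and 732 CPM in LBP livers, against 7.78 to 98.5 CPM in the vehicle of batch 1, and 5 of the 8 tested were called higher. Erythroid markers (5 genes, none at 0 throughout a group) summed to 2731, 371 and 297 CPM in LBP livers, against 234 to 370 CPM in the vehicle of batch 1, and 2 of 5 were called higher. Kupffer cell markers summed to 1296, 232 and 382 CPM in LBP livers, against 337 to 481 CPM in the vehicle of batch 1, and 1 of 11 was called higher (C1qa). Of 7 hepatocyte markers 1 was called higher (Apoc3). These counts stand beside 6.73% of all genes called higher. The part of these cells in the Nfkbia value was not tested.

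For some of the 10 genes the vehicle groups themselves differed in how far their livers spread. In the vehicle of batch 2 the SD of log2 CPM was 2.02 for Cxcl1, larger than that of nearly every other gene (0.018% of 11029 genes had a larger one), 1.1 for Socs3 (0.743% larger), 1.08 for Steap4 (0.771%) and 1.05 for Il1rn (0.807%). In the vehicle of batch 1 it was 0.11 for Cxcl1 (84.0% of genes larger), 0.06 for Socs3 (96.1%), 0.27 for Steap4 (43.4%) and 0.42 for Il1rn (21.8%). Il6ra spread more in the vehicle of batch 1 (0.27) than in that of batch 2 (0.21). The median SD over all genes was 0.246 in the vehicle of batch 2 and 0.235 in that of batch 1. Cxcl1 and Socs3 were high in the same vehicle livers of batch 2, replicates 2 and 3, and low in replicates 1 and 4. Osmr and Tnip2 were high and low in the same livers. Summed neutrophil markers were 5.23, 13.8, 22.4 and 10.8 CPM in these 4 livers, in the order of their numbers. Between the vehicles, with batch 1 over batch 2, the log2 fold change was -1.54 ± 0.62 for Cxcl1 (adjusted p 0.110, edgeR) and 0.82 ± 0.29 for Stat3 (0.0710), and 12.2% of all genes were called. Stat3 was the 1 gene of the 10 without overlap of ranges, beside 31.6% of all genes. In the fit without LBP replicate 2, Stat3 was called (0.82 ± 0.23, adjusted p 0.0113, edgeR) beside 30.3% of all genes.

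Across the 22 libraries without LBP replicate 2, the level of Socs3 followed that of Cxcl1 more closely than that of any other of 11020 genes (Pearson r 0.905, Spearman rho 0.914), and r was 0.805 over the 18 libraries that were not FSTL3. The genes most like Cxcl1 were Jtb (r 0.931), Atxn7l3b (0.929), Utp11 (0.927), the neutrophil gene S100a9 (0.926) and Id2 (0.921). After Cxcl1, those most like Socs3 were Gm16348 (0.857), Jund (0.852), Junb (0.839) and Prg4 (0.836). With LBP replicate 2 included, r with Cxcl1 was 0.927 for Jtb, 0.821 for S100a9, 0.782 for Utp11, 0.653 for Id2 and 0.268 for Atxn7l3b. With it, r with Socs3 was 0.906 for Cxcl1, 0.873 for Gm16348, 0.847 for Prg4, 0.751 for Junb and 0.279 for Jund. Among the 10, Cxcl1 ran with Nfkbiz (r 0.888) and Nfkbia (0.839), and Steap4 with Il1rn (0.774) and Stat3 (0.741). Il6ra had r of -0.37 with Cxcl1 over the 22 libraries and 0.085 over the 18 that were not FSTL3. Osmr had r of 0.18 with Cxcl1 over the 22 libraries and 0.627 over the 18 that were not FSTL3. These libraries share groups, batches and low values in FSTL3 livers, so the coefficients describe them and carry no test.

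**Figure D4:**
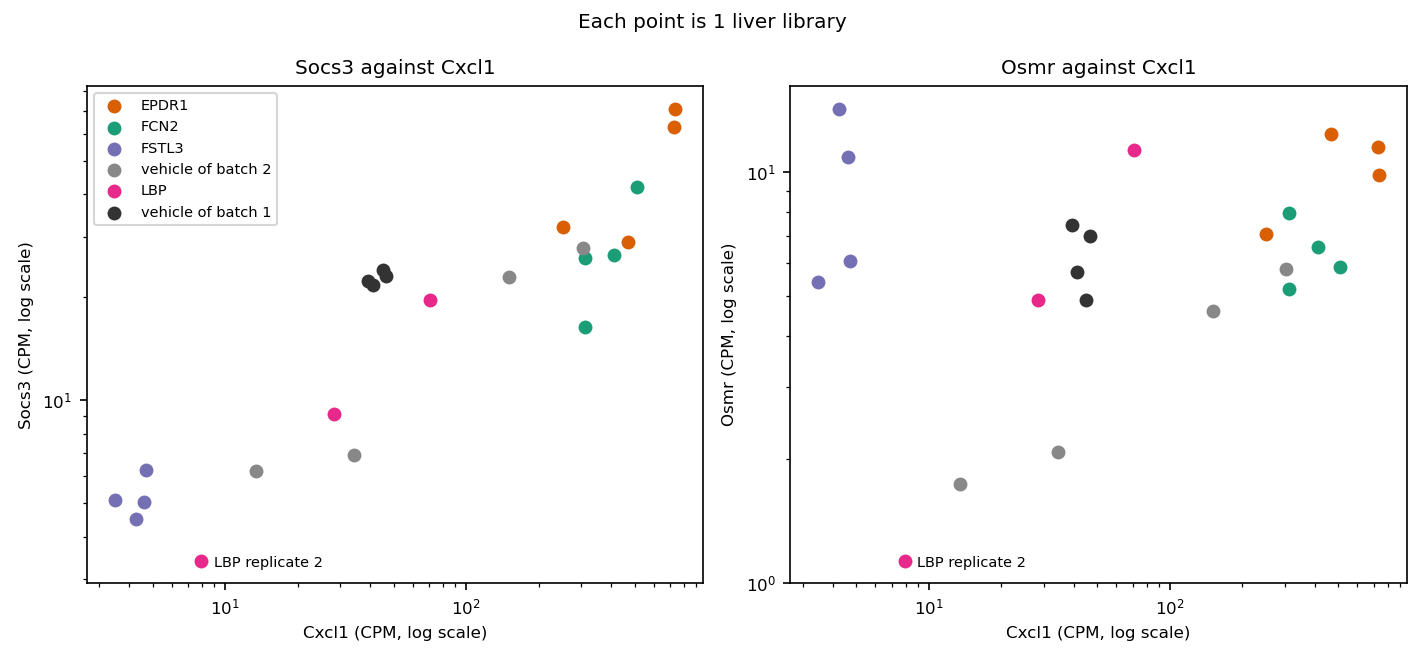
Level of Socs3 (left) and Osmr (right) against Cxcl1 in CPM on log axes, 1 point per library, coloured by group. The FSTL3 livers have 4.50 to 6.25 CPM of Socs3 at the lowest Cxcl1 levels (LBP replicate 2, with 3.40 CPM of Socs3, is the one library lower), and the same FSTL3 livers have 5.39 to 14.3 CPM of Osmr.

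Other genes of the same pathways were taken from 8 lists of 109 genes, of which 82 were tested. Of 7 ligands of these receptors, only Ctf1 passed the filter on low counts, and edgeR did not call it after any protein. The others were sparsely sequenced. Il6 had 11 reads in all 23 libraries together, Osm 1, Il11 4 and Lif 4, so their levels could not be compared at this depth. With edgeR none of the 82 genes was called after EPDR1, after FCN2 or between EPDR1 and FCN2. DESeq2 called 4 higher after FCN2, beside 433 of all 11969 genes, and 1 lower between EPDR1 and FCN2, beside 52. With limma-voom 1 was called higher after FCN2, beside 39 of all genes. The 13 STAT3 target genes tested had a median log2 fold change of 0.47 after EPDR1 and 0.15 after FCN2, beside 0.01 and 0.02 over all genes. The highest of them after EPDR1 were Mt2 (2.43 ± 0.94), which encodes a metallothionein, Il1r1 (1.38 ± 0.55), Pim1 (0.99 ± 0.34) and Junb (0.84 ± 0.33), and none passed. Without LBP replicate 2, 6 list genes were called higher and 6 lower after FCN2, beside 8.81% and 10.1% of all genes. In that fit Jak2 (0.51), Ptpn2 (0.72), Il18 (0.90) and the interleukin-1 receptor accessory chain Il1rap (0.58) rose, and Pias4 (-1.08), the NF-kB subunit Rela (-0.77) and Lrg1 (-1.13) fell. By list, gp130 receptors and JAK-STAT had 1 gene higher and 1 lower, and the interleukin-1 axis 2 higher and 2 lower. The lower genes of both lists are not named here. Between EPDR1 and FCN2, 2 list genes were called higher, Pias4 (0.85) and Lrg1 (1.28), and 4 lower, Jak2 (-0.48), Il18 (-0.57), Il1rap (-0.43) and the chemokine gene Cxcl12 (-0.51), in the fit without LBP replicate 2. Of all 12244 genes in that fit, 277 were called higher and 302 lower between EPDR1 and FCN2.

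After FSTL3, 21 of the 82 genes fell and 5 rose, beside the 16% and 23.2% of all genes given above. Of the STAT3 targets, 6 of 13 fell and none rose, with a list median of -1.27 beside 0.06 over all genes. These were Fgl1 (-3.18 ± 0.44), which encodes a hepatocyte-secreted protein of the fibrinogen family, Bcl3 (-2.31 ± 0.45), a nuclear IkB protein, Lrg1 (-1.66 ± 0.53), the iron hormone gene Hamp (-1.65 ± 0.54) and the fibrinogen chains Fgg (-1.42 ± 0.35) and Fgb (-1.27 ± 0.46). Fgl1 averaged 134 ± 27.7 CPM in FSTL3 livers and 1217 ± 387 CPM in the vehicle of batch 2 (SD, n = 4 each). Of 12 chemokine and receptor genes, 7 fell and 1 rose. The B cell chemokine Cxcl13 (-3.29 ± 0.45), the monocyte chemokine Ccl2 (-3.22 ± 0.70), Cxcl10 (-2.36 ± 0.58) and Ccl9 (-0.89 ± 0.22) fell, and Ccl25 (0.73 ± 0.21) rose.

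The NF-kB list had 3 of 18 genes lower after FSTL3, Nfkbib (-1.82 ± 0.30), Zfp36 (-0.76 ± 0.25) and Tnip1 (-0.67 ± 0.26), and 2 higher, the deubiquitinase gene Cyld (0.82 ± 0.20) and Nfkb1 (0.39 ± 0.14). These counts and those of the lists that follow stand beside 16% of all genes lower and 23.2% higher. No pathway change is read from them. Of 11 genes for gp130 receptors and JAK-STAT signalling, Il6st, which encodes gp130 itself, rose (0.70 ± 0.22) and Stat2 fell (-0.96 ± 0.25). Of 11 interleukin-1 axis genes, the adaptor gene Myd88 (-1.09 ± 0.27) and Il18 (-0.83 ± 0.23) fell. Of 14 SOCS and other JAK-STAT inhibitors, the phosphatase gene Ptpn6 fell (-0.86 ± 0.19). In the STEAP family, Steap2 (1.53 ± 0.34) rose and Steap3 (-0.76 ± 0.23) fell. When LBP replicate 2 was left out, 28 list genes fell and 15 rose, beside 25.4% and 31.3% of all genes. With the vehicle of batch 1 as control 24 fell and 3 rose, beside 13.2% and 18.7% of all genes. Against that control the gp130 and STEAP lists had no gene called higher, so Il6st and Steap2 were not, and each list had 1 lower. The NF-kB list had 1 higher and 5 lower there.

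After LBP, 3 list genes were called higher and 2 lower, beside 6.73% and 0.969% of all genes. The counts were 1 in each direction whichever single vehicle library was left out, beside 264 to 387 of all genes higher and 25 to 50 lower. They were 0 with limma-voom, with the replicate block or with only the libraries compared. Without LBP replicate 3 they were 11 higher and 3 lower of 84 tested, beside 1654 and 491 of all 12294 genes. Without LBP replicate 4 they were 10 higher and 6 lower of 84, beside 1695 and 251 of all 12333 genes. Tnfaip8 (3.21 ± 0.56) and the STAT3 target Cebpd (-1.59 ± 0.37) were also called without LBP replicate 2 (3.48 ± 0.53 and -1.59 ± 0.39). The interleukin-11 receptor gene Il11ra1 (2.41 ± 0.64), the interleukin-1 receptor kinase gene Irak1 (1.17 ± 0.35) and Zfp36 (-1.01 ± 0.29) were called only with it among these 2 fits. Summed neutrophil markers were 20.4, 3.90 and 18 CPM in LBP livers, against 5.71 to 14.8 CPM in the vehicle of batch 1.

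**Figure D5:**
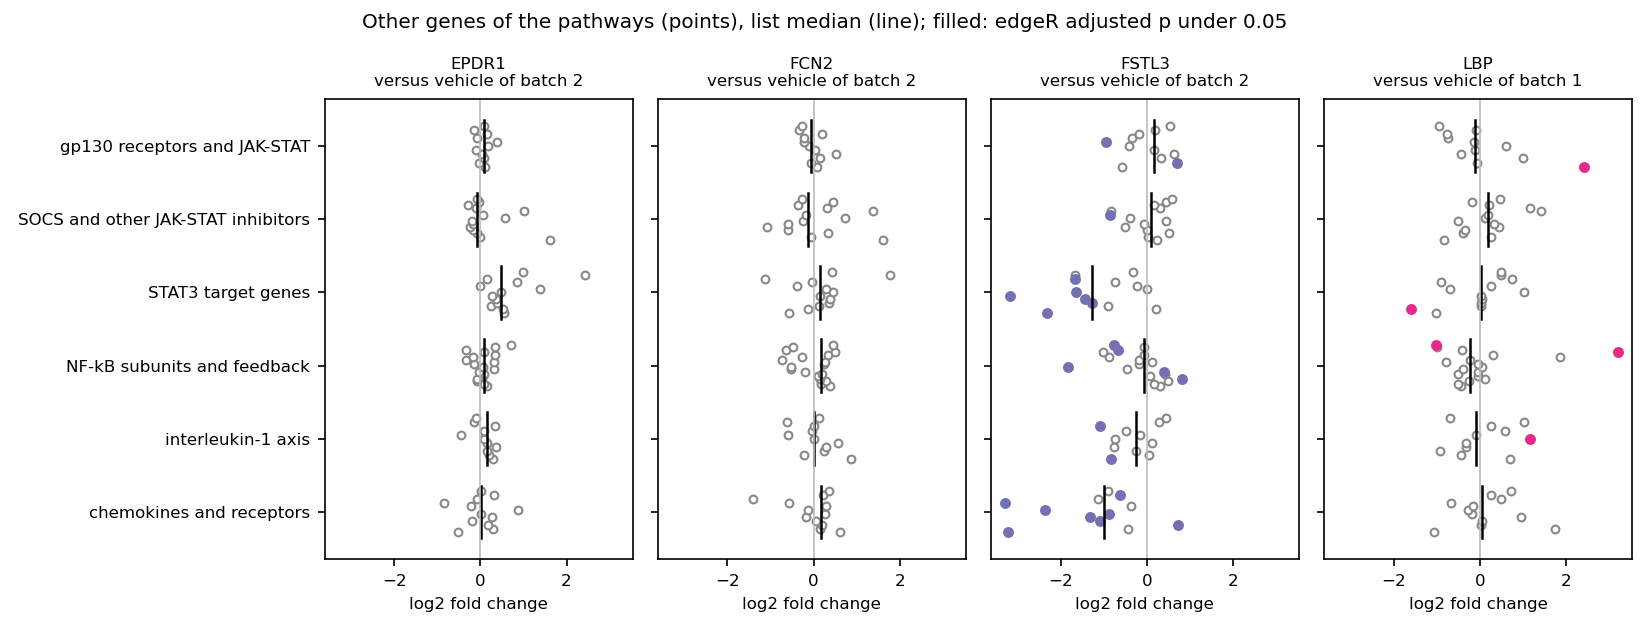
Log2 fold change of each tested pathway gene (points) by list, with list medians as lines and filled points for an adjusted p under 0.05 in edgeR. After FSTL3, the medians of the STAT3 targets (-1.27) and the chemokines (-1.0) lie below 0, and no point is filled for EPDR1 or FCN2.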

How the data were processed

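The authors deposited raw read counts for each gene. The aligner was STAR 2.6.0c with GRCm38, per the submitters' processing notes. Counting used featureCounts 1.6.3 and Ensembl 95 with no strand or pairing option, per the file headers. Groups follow the labels. The 10 genes and the pathway lists were chosen with earlier results of these data known. After filterByExpr, 11969 genes entered one edgeR 4.0.16 fit (R 4.3.3; TMM scaling, robust quasi-likelihood, all 23 libraries, a mean per group). CPM use the TMM-scaled library size, and log2 CPM a prior count of 2. Without LBP replicate 2, 12244 genes were tested. The fit was tested on simulated data. Small libraries give few reads for weakly expressed genes. No 2 replicates of the 33 pairs were as alike as one library counted again (lowest chi-square over degrees of freedom 2.27). Named genes are the 10, per list and comparison up to 4 called genes of smallest p with a mean of at least 1 CPM, and the 5 genes most correlated with Cxcl1 or Socs3. Named beyond that rule, after their values were seen, are the ligands, the marker genes, Rn7sk, Arntl, Fgb, Hamp, Ccl25 and Tnip1. So are the STAT3 targets given for EPDR1, and list genes called without LBP replicate 2. Alternatives were DESeq2 1.42.0, limma-voom (limma 3.58.1), other scaling and filters, a replicate block and leaving out libraries. Leaving out LBP replicate 2 together with another choice, and testing protein-coding genes alone, were chosen after seeing the data.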

Additional observations from a re-analysis of the deposited data

Results flagged for a closer look

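In 50 groups of 4 libraries (10 genes in 5 groups), 1 held a library far from the other 3, judged by the gap to its nearest neighbour over the range of the group; chance gives about 1 in 20. Tnip2 was 4.57 CPM in replicate 2 of the vehicle of batch 1, with 7.58 to 8.13 CPM in the other 3. That library was the smallest of the series (773499 counts) and held 4 reads of Tnip2. The LBP group of 3 was not examined in this way.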

How the results depend on the processing

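For EPDR1 no gene was called over all libraries, and 2 were with only the libraries compared or with a replicate block without LBP replicate 2. For FCN2 (97 genes) the counts were 156 with limma-voom, 64 with DESeq2 size factors, 9 with no filter, 60 with a stricter filter, 49 with a replicate block, 763 with DESeq2, 1409 with only the libraries compared and 0 without the FSTL3 libraries. They were 1808 without the FSTL3 libraries and LBP replicate 2 and 2065 with the block without that replicate. For FSTL3 (4695 genes) they were 7190 with no filter and 7929 with only the libraries compared. For LBP (922 genes) they were 3 with limma-voom, 404 with no filter, 2 with the block, 0 with only the libraries compared and 519 without the FSTL3 libraries, and without LBP replicate 2 they were 47 with the block and 19 without the FSTL3 libraries. Between EPDR1 and FCN2 (0 genes) DESeq2 called 71, and without LBP replicate 2 the block called 513 and the fit without the FSTL3 libraries 318. Of the 10 genes, 1 was called for LBP, and 0 with limma-voom, no filter, the block, DESeq2 (which gave Nfkbia no adjusted p), only the libraries compared, or any setting without LBP replicate 2.

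Leaving out single libraries, alone or together with LBP replicate 2, gave 0 to 4 genes for EPDR1, 0 to 2314 for FCN2, 3853 to 6950 for FSTL3, 23 to 2145 for LBP and 0 to 884 between EPDR1 and FCN2. Of the 10 genes it gave 0 to 3 for FCN2, 3 to 7 for FSTL3 and 0 to 1 for LBP. The log2 fold change of Nfkbia after LBP ran from -0.27 to 2.49, with -0.09 without LBP replicate 2, -0.16, -0.05 and -0.17 when vehicle replicate 1, 2 or 4 was left out as well, -0.095 without the FSTL3 libraries as well and -0.15 with the block as well. The cause was not tested. Same-numbered libraries had correlations of -0.13 to 0.23 in their deviations, not all over 0.1 in any comparison. Unmatched libraries were not set beside them, so these values cannot settle whether same-numbered libraries were paired. With the replicate block 4506 genes and 3 of the 10 were called for FSTL3. Il6ra after FSTL3 was not called with the block (adjusted p 0.0546), with DESeq2 size factors (0.0527) or on protein-coding genes alone (0.0524), all edgeR fits. Depth limits Osmr, Socs3, Tnip2 and Il1rn most, with as few as 1, 3, 3 and 6 reads in a library.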
